A study of Mus musculus with 2 samples.

Results

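Primary cilium and cystic kidney disease genes were read in the total RNA of embryonic mouse kidney. The set held 56 genes listed by name and role, with earlier results of these data known, and all 56 matched a row among the 43346 mouse genes measured. They comprised 10 subunits of intraflagellar transport complex B (IFT-B), 5 of complex A (IFT-A) and 4 motor genes. A further 7 genes encode the BBSome and 3 act in its assembly or recruitment, 12 belong to the MKS module of the transition zone and 4 to its nephronophthisis scaffold. The remaining genes were 3 of the inversin compartment, 2 of the basal body, 2 of the ciliary membrane, 3 cyst protein genes and the transcription factor gene Glis2. The kidneys came from healthy embryos of the mouse strain B6NCrl at embryonic day 15.5, with males and females pooled, no treatment and no altered allele. The only group was represented by 2 biological replicates, a pool of 78 embryos in replicate 1 and a pool of 62 embryos in replicate 2. Each library was made from 10 ng of RNA longer than 200 nt. With 1 group there was no comparison between conditions, and 2 libraries cannot give an exact two-sided p below 0.5, so no p is given. Errors are SDs over the 2 libraries, which measure the spread between these pools only.

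A primary cilium is a single microtubule-based projection of the cell surface, built on a basal body and separated from the cell by the transition zone. Intraflagellar transport carries cargo along it, with kinesin-2 and IFT-B moving towards the tip and dynein-2 and IFT-A moving back, while the BBSome moves membrane proteins out of the cilium. In kidney tubules the cilium holds the polycystins, and loss of many of these genes causes cystic kidneys, nephronophthisis, or the Meckel, Joubert and Bardet-Biedl syndromes in people. RFX transcription factors bind a sequence called the X-box in the promoters of many cilium genes.

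The letters of this motif were searched in RefSeq promoters (build GRCm38, the same as mm10), which cover 250 bases before and 50 bases after an annotated start of transcription. Promoters were matched for 50 of the 56 genes, with 59 promoters in all, and not for Ift122, Ift80, Ift81, Tmem67, Anks6 and Glis2. The RFX half-site GTTGCCA, on either strand, was found in 11 of the 50 genes (22%), against 4.8% of 17492 protein-coding genes with a RefSeq promoter and 4.38% of all 32851 promoters. A full X-box, also searched on both strands, was found in 8 of the 50 genes (16%), against 1.73% of the same protein-coding genes. Its pattern allowed other letters than those of the half-site GTTGCCA, so a full X-box need not contain the half-site. Of these 8 genes, 6 belonged to the MKS module, which had 11 genes with a promoter. Each match is given in a 30-base window, 5′ to 3′ on the strand of the gene, so that the letters can be compared between genes. Capitals mark the match, and positions count from the RefSeq start, with 1 as the first transcribed base. For the full X-box, 1 match is given for each of the 8 genes:
Tctn3 (chr19:40612351-40612380, minus strand, from -140): ctcccagcgGTTGCCAGGTAACgggaacca
Ift57 (chr16:49699199-49699228, plus strand, from -87): cgggtctgGTTGCCGTGGTGACcggctgcc
Tctn2 (chr5:124598679-124598708, plus strand, from -62): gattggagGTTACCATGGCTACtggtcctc
Tmem237 (chr1:59120102-59120131, minus strand, from -27): tagtcagcGTTGCCATGGCGACgcctccgg
Bbs1 (chr19:4906605-4906634, minus strand, from 2): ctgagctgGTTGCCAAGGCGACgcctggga
B9d2 (chr7:25680788-25680817, plus strand, from 17): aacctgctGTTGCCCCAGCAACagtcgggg
Ahi1 (chr10:20952560-20952589, plus strand, from 22): tagtctgaGTTACCTAGGCAACagcggcag
Tctn1 (chr5:122264411-122264440, minus strand, from 37): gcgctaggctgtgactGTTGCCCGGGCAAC

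In Tctn3, Tmem237 and Bbs1 the half-site was the first part of the full X-box. The other 8 half-sites stood apart from any full X-box, and 3 of them (B9d1, Ift88 and Dync2h1) read as the reverse complement on the strand of the gene:
Mks1 (chr11:87853179-87853208, plus strand, from -24): gccagcgtctccGTTGCCAggggaacgagg
Ift27 (chr15:78174073-78174102, minus strand, from -9): gggttgatgatgGTTGCCAggagcctgttt
Nphp4 (chr4:152478131-152478160, plus strand, from 2): tggtgcatcccgGTTGCCAgctgatgttgg
Tctn2 (chr5:124598750-124598779, plus strand, from 14): cattgattggtgGTTGCCAtggctgcaggc
B9d1 (chr11:61505151-61505180, plus strand, from 20): ccgagagcctccTGGCAACagcgcgcggcc
Ift88 (chr14:57424079-57424108, plus strand, from 21): tggagtcgcgccTGGCAACggctgggcgtc
Dync2h1 (chr9:7177009-7177038, minus strand, from 36): catagcgacggagctTGGCAACtgctgagt
Wdr35 (chr12:8974021-8974050, plus strand, from 41): gatgcgactgggcggcggtgGTTGCCAggc

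Of the 11 half-site matches, 10 began within 50 bases of the start, and the exception was Tctn3. The searched stretch itself ended 50 bases after the start, and the same share over all promoters with a half-site is not given here. The half-site without its last base was present in 23 of the 50 genes (46%), against 14.3% of protein-coding genes. The 250 bases that lie before the start of Mks1, a gene of the MKS module, held 1 half-site close to the start (chr11:87852965-87853214, plus strand):
Mks1: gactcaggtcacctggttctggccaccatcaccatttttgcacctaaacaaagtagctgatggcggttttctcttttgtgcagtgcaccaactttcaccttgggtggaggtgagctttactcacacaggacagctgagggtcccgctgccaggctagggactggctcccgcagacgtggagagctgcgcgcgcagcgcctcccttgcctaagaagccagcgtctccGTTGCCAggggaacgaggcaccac

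The 15 genes with a match had a median of 15.3 TPM (2.11 to 66.9), and the 35 with a promoter and no match had 14.0 TPM (3.08 to 113.8). TPM is a relative abundance of transcripts adjusted for length, so levels of different genes can be set side by side. The medians were close, and the ranges overlapped from 3.08 to 66.9 TPM. Among the genes for the factors themselves, Rfx7 had 10.5 TPM in replicate 1 and 10.9 in replicate 2, and Rfx3, a regulator of ciliogenesis, had 10.1 and 10.3. Rfx5, better known for its part in MHC class II expression, had 8.83 and 7.21 TPM, Rfx1 had 7.32 and 7.14, and Rfx2 had 2.35 and 2.87. Rfx4 (0.14 and 0.12 TPM) and Rfx6 (0.02 and 0.05 TPM) were below 1 TPM in both libraries. A match is a run of letters, not a measured binding site.

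**Figure D1:**
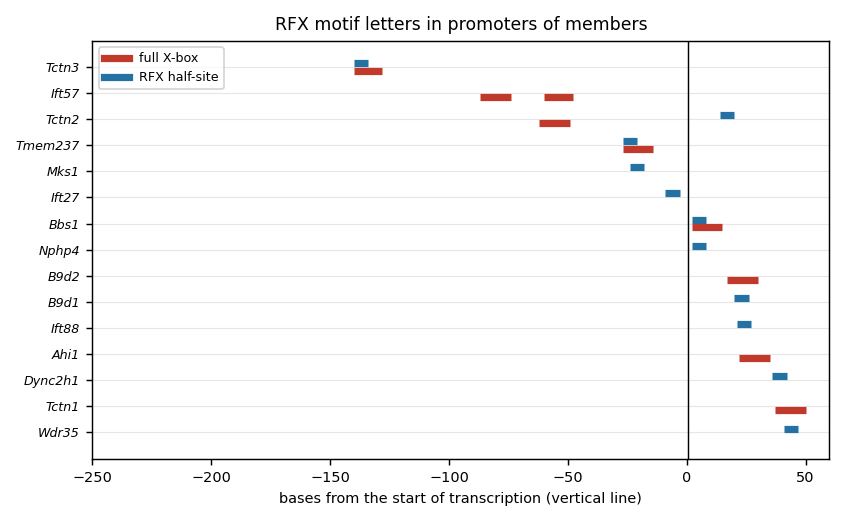
Positions of RFX motif letters in the promoters of the 15 genes with a match. The horizontal axis gives bases from the RefSeq start of transcription, red bars are full X-boxes and blue bars half-sites. Apart from Tctn3, Ift57 and the X-box of Tctn2, the matches begin within 50 bases of the start.

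All 56 genes reached 1 TPM in both libraries, the threshold used here for detection. The same held for 34.9% of all mouse genes and for 62.3% of 21474 protein-coding genes. The median over the 56 genes was 14.0 TPM in replicate 1 and 15.1 TPM in replicate 2, a mean of 14.5 ± 0.746 TPM (SD, n = 2). The median over the 13387 detected protein-coding genes was 19.4 ± 0.099 TPM, and 19 of the 56 genes had a mean TPM above it. The quartiles of the 56 genes were 7.23 and 30.3 TPM, against 6.99 and 49.1 TPM for detected protein-coding genes. The genes were thus present throughout but mostly at moderate levels: 15 were at 30 TPM or more, 22 between 10 and 30, 18 between 3 and 10, and 1, Bbs1, below 3. In a bulk tissue, fewer cells that express a gene and less RNA per cell cannot be told apart.

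**Figure D2:**
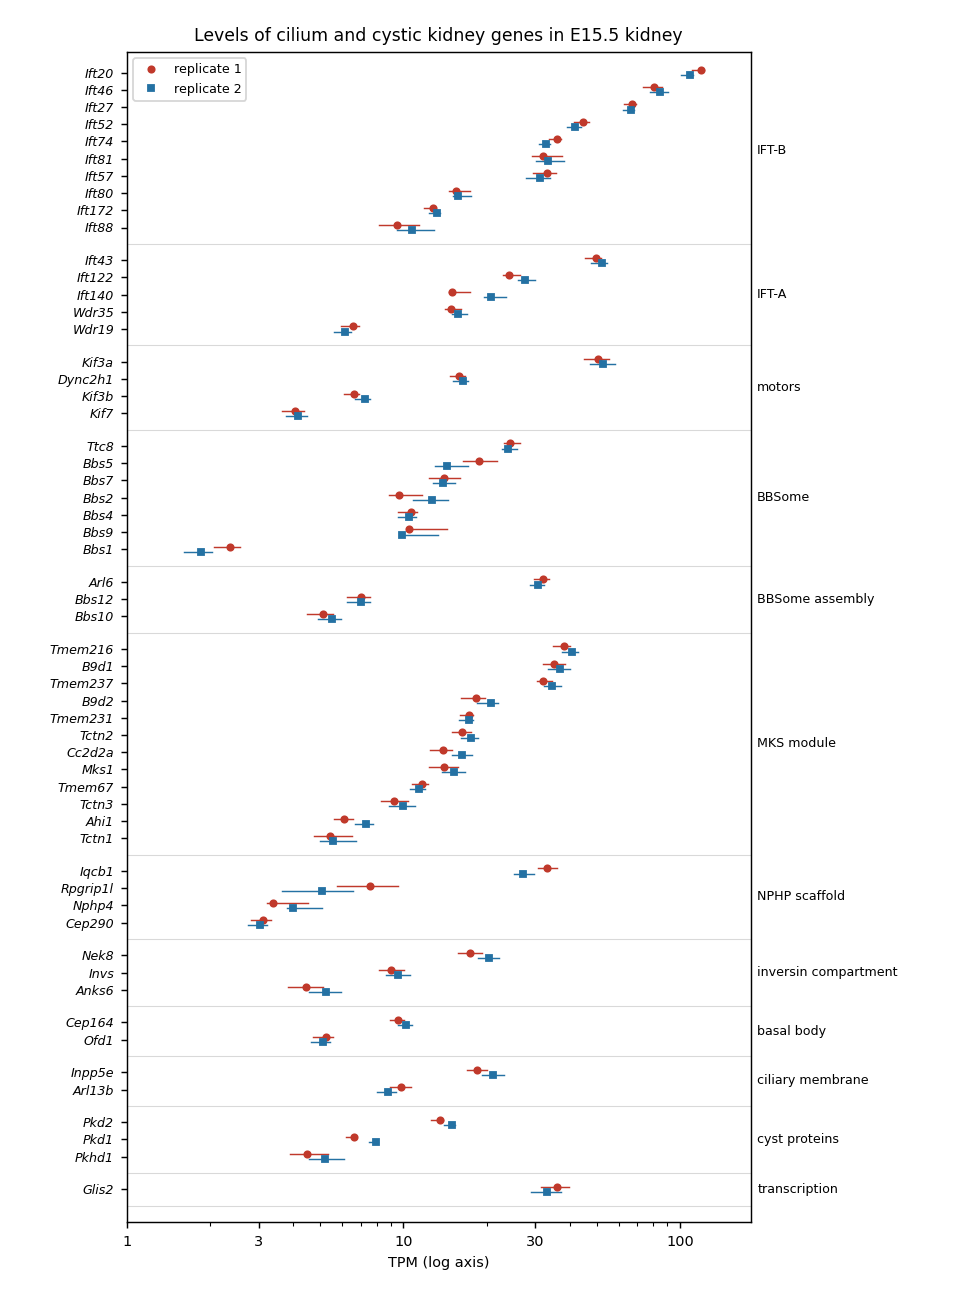
TPM of each of the 56 genes (log axis) in replicate 1 (red circles) and replicate 2 (blue squares), grouped by role and ordered by mean within a role. Lines are the deposited TPM intervals of the authors' quantifier within a library, which leave out the TPM value itself for Bbs9. Ift20 stands highest and Bbs1 lowest.

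IFT-B, the complex that carries cargo to the ciliary tip, was the most abundant of the groups with several genes. Its 10 members had a median of 33.8 ± 0.965 TPM. Ift20 (ENSMUSG00000001105.11, chr11:78536361-78541737, plus strand), which also works at the Golgi, had 119.1 TPM in replicate 1 and 108.5 in replicate 2. It was the highest of the 56 genes and lay above 89.9% of detected protein-coding genes. Ift46 followed with 80.2 and 84.8 TPM, and Ift27, a small GTPase subunit, with 67.3 and 66.6. Ift52, a core subunit, had 44.6 and 41.8 TPM. Ift74 and Ift81, partners that bind tubulin cargo, had 35.9 and 32.8 TPM and 31.9 and 33.4 TPM, and Ift57 had 33.1 and 31.0. The lower end held the large subunits Ift80 (15.4 and 15.8 TPM), Ift172 (12.8 and 13.3) and Ift88 (9.48 and 10.8). Ift88 (chr14:57424062-57517936), the gene hit in the Oak Ridge polycystic kidney mouse, was thus the lowest of the complex, 11.2 times under Ift20.

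IFT-A, needed for return transport and for entry of membrane proteins, had a median of 17.9 ± 3.97 TPM over 5 genes. Ift43, its smallest subunit, had 49.5 and 52.2 TPM, and Ift122 had 24.0 and 27.5. Ift140 (chr17:25016085-25099495) had 15.04 TPM in replicate 1 and 20.66 in replicate 2, and was the median gene of the group in both libraries. Wdr35 had 14.9 and 15.8 TPM, and Wdr19, a nephronophthisis gene, had 6.56 and 6.16. The lowest and the highest subunit were 7.995-fold apart.

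Among the motors, Kif3a (chr11:53567379-53601967) had 50.6 and 52.7 TPM and its kinesin-2 partner Kif3b (chr2:153291413-153333390) had 6.65 and 7.26. The 2 libraries gave nearly the same gap. Dync2h1, which encodes the heavy chain of dynein-2, had 15.9 and 16.4 TPM over all its transcripts. Its 14264-nt coding transcript Dync2h1-204 had 3.84 and 3.13 TPM, and the 2892-nt coding transcript Dync2h1-202 had 8.96 and 9.69. Kif7, a kinesin that acts in Hedgehog signalling at the ciliary tip, had 4.05 and 4.16 TPM. The group spanned 12.6-fold.

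The 7 BBSome subunits had a median of 11.6 ± 1.44 TPM. Ttc8 (also called Bbs8) led with 24.3 and 23.9 TPM, then came Bbs5 (18.8 and 14.4), Bbs7 (14.1 and 14.0) and Bbs2 (9.65 and 12.7). Bbs4 had 10.6 and 10.5 TPM and Bbs9 had 10.5 and 9.90. Bbs1 (ENSMUSG00000006464.8, chr19:4886878-4906628, minus strand), whose product binds the GTPase Arl6, had 2.37 and 1.85 TPM from 318 and 268 expected counts. It was the lowest of all 56 genes. In the tables it had a single transcript of 5581 nt. Of the 3 assembly and recruitment genes, Arl6 had 31.9 and 30.6 TPM, and the chaperonin-like Bbs12 and Bbs10 had 7.01 and 7.05 TPM and 5.11 and 5.53 TPM.

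The transition zone split into a higher and a lower group. The 12 genes of the MKS module had a median of 15.9 ± 1.13 TPM and the 4 genes of the nephronophthisis scaffold 5.01 ± 0.675 TPM. In the MKS module, the membrane protein gene Tmem216 was highest (37.9 and 40.8 TPM), followed by B9d1 (35.1 and 36.8) and Tmem237 (31.9 and 34.5). B9d2 had 18.3 and 20.7 TPM, Tmem231 had 17.3 and 17.2, Tctn2 had 16.3 and 17.5, and Cc2d2a had 13.9 and 16.2. Mks1 had 14.0 and 15.2 TPM, Tmem67, which encodes meckelin, had 11.6 and 11.4, and Tctn3 had 9.28 and 9.93. Ahi1 (6.09 and 7.33 TPM) and Tctn1 (5.42 and 5.56 TPM) were lowest. In the scaffold, Iqcb1 (also called Nphp5) stood apart with 33.0 and 27.0 TPM. Rpgrip1l, Nphp4 and Cep290 had 7.60 and 5.08 TPM, 3.38 and 3.99 TPM, and 3.12 and 3.03 TPM.

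The inversin compartment, a segment of the proximal cilium whose genes are mutated in infantile nephronophthisis, had a median of 9.29 ± 0.339 TPM. The kinase gene Nek8 had 17.4 and 20.3 TPM, Invs had 9.05 and 9.53, and Anks6, whose product binds Nek8, had 4.43 and 5.24. At the basal body, Cep164, a distal appendage gene, had 9.56 and 10.2 TPM and Ofd1 had 5.25 and 5.13. Inpp5e, the phosphoinositide phosphatase of the ciliary membrane, had 18.41 and 20.99 TPM, and Arl13b, the GTPase that retains it there, had 9.84 and 8.76.

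Of the cyst protein genes, Pkd2 (ENSMUSG00000034462.9, chr5:104459450-104505819, plus strand), which encodes the channel polycystin-2, had 13.55 and 14.95 TPM. Pkd1 (ENSMUSG00000032855.5, chr17:24549834-24596508, plus strand), the receptor-like polycystin-1 and the gene most often mutated in the dominant disease in people, had 6.62 and 7.97 TPM. By counts the order was reversed: Pkd1, with a transcript of 14170 nt, had 2282 and 2958 expected counts, and Pkd2 had 1686 and 1981. Pkhd1 (ENSMUSG00000043760.12, chr1:20057779-20618064, minus strand), the recessive disease gene that encodes fibrocystin, had 4.48 and 5.20 TPM. Glis2, a zinc finger gene mutated in nephronophthisis, had 36.0 and 33.1 TPM.

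Chosen pairs of the genes, among them partners and paralogs but also genes of different roles such as Kif7 and Glis2, were then compared within each library. A pair was taken to differ if the gap in log2(TPM + 1) had the same sign in both libraries. Both gaps also had to exceed replicate error, taken as the size of log2 ratio between libraries that 95% of genes near the lower gene's level stay under. Neither this limit nor the SDs cover errors of a gene that both libraries share, such as those of transcript assignment. Of 28 chosen pairs, 22 differed, but so did 75% of all 1540 pairs among the 56 genes, so the chosen pairs stood near that background. Kif3a exceeded Kif3b by 2.73 ± 0.037 on this log2 scale, against a limit of 0.65. Pkd1 was below Pkd2 (-0.88 ± 0.073), and Pkd2 was above Pkhd1 (1.39 ± 0.032). Bbs1 was below Bbs9 by a difference of -1.85 ± 0.120, and Kif7 was below Glis2 (-2.80 ± 0.104), the widest gap among the chosen pairs. Among the tectonic paralogs, Tctn1 (-1.46 ± 0.048) and Tctn3 (-0.75 ± 0.007) were both below Tctn2. B9d1 was above B9d2 (0.85 ± 0.071) and above Mks1 (1.246 ± 0.031), and Anks6 was below Nek8 (-1.76 ± 0.009).

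The other 6 pairs did not pass the limit. These were Ift81 and Ift74 (-0.07 ± 0.131), Ift172 and Ift80 (-0.24 ± 0.019), Ift27 and Ift46 (-0.30 ± 0.066), Bbs2 and Bbs7 (-0.32 ± 0.260), Bbs10 and Bbs12 (-0.35 ± 0.063), and Tmem67 and Cc2d2a (-0.35 ± 0.168). Ift81 and Ift74 had opposite signs in the 2 libraries. In the full order of 56 levels, only 2 of the 55 neighbouring pairs differed by the same rule. Ift20 stood above Ift46 by 0.46 ± 0.151, and Ift27 above Kif3a by 0.37 ± 0.051. On protein-coding transcripts alone, Ift20 no longer differed from Ift46 (0.31). Another 4 neighbouring pairs passed the limit in 1 library only and so were not called.

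Long genes of the set were lower than short ones. The 16 genes with a transcript length under 2000 nt, weighted by abundance, had a median of 34.6 TPM. The 24 genes from 2000 to 4000 nt had 12.8 TPM, and the 16 genes of 4000 nt or more had 6.83 TPM. Detected protein-coding genes had 34.0 TPM under 2000 nt and 10.9 TPM at 4000 nt or more. Spearman's rho of mean TPM and length was -0.70 across the 56 genes and -0.30 across 13387 detected protein-coding genes. With the longest protein-coding transcript of the annotation as the length, rho was -0.62 across 55 genes and -0.25 across 13373. These are correlations across genes, which share libraries and are not replicates. The length of a gene also enters its TPM as a divisor.

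**Figure D3:**
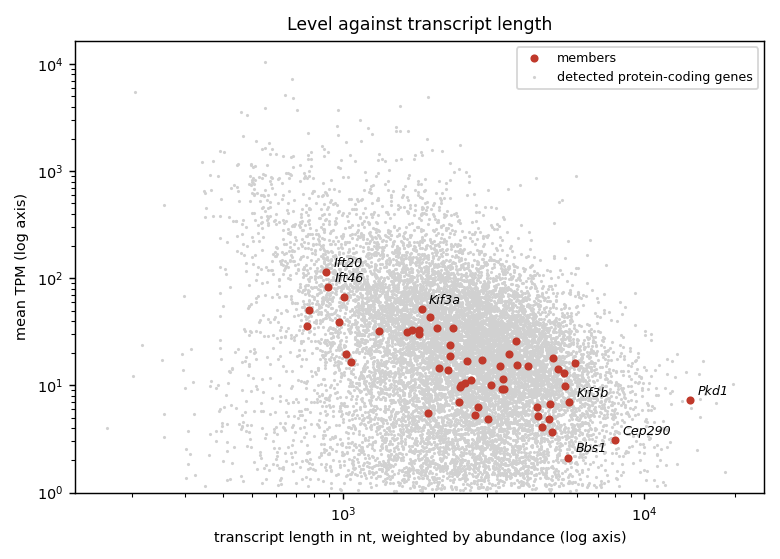
Mean TPM against abundance-weighted transcript length, both on log axes, for the 56 genes (red) and for detected protein-coding genes (grey). Short IFT genes such as Ift20 sit at the upper left, and Pkd1, Cep290 and Bbs1 at the lower right.

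Between the 2 kidney pools, 0 of the 56 genes differed 2-fold at a mean expected count of 100 or more. Over all mouse genes with that count, 1.23% of 13507 did. The 56 genes had between 240 and 2958 expected counts in a library, out of totals of 36244861 in replicate 1 and 39415002 in replicate 2, and took 0.163% and 0.168% of them. The median log2 ratio of replicate 1 over replicate 2 was -0.06 for the 56 genes and -0.02 for 15108 detected genes. The median absolute log2 ratio was 0.09 for the 56 genes and 0.10 for the detected genes. Of the 56 genes, 21 were higher in replicate 1 and 35 in replicate 2. Markers of other tissues differed more between the pools. Summed adrenal markers had 45.0 TPM in replicate 1 and 183.2 in replicate 2 (6 of 6 genes higher in replicate 2), skeletal muscle markers 330.2 and 173.1, and liver markers 211.4 and 416.5. Their part in the small differences of the cilium genes was not tested. All 14 markers of embryonic kidney were detected, with a median of 36.8 ± 3.07 TPM.

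Past the 95th percentile of their abundance bin lay 4 of the 56 genes, against 5.01% of 15108 detected genes by construction. Ift140 had a log2 ratio of -0.43 and Bbs2 of -0.36, and Bbs5 of 0.36 and Iqcb1 of 0.28. Their main protein-coding transcripts differed less than the genes. Ift140-201 had 12.0 TPM in replicate 1 and 12.8 in replicate 2, while Ift140-207, a processed transcript, had 2.70 and 5.49. Bbs2-201 had 8.54 and 8.95 TPM, while the retained-intron form Bbs2-202 was at 0 and 2.04. Bbs5-201 had 10.6 and 10.7 TPM, and the retained-intron form Bbs5-206 had 2.41 and 0. Iqcb1-201 had 20.9 and 17.7 TPM, close to the ratio of its gene (33.0 and 27.0 TPM).

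The highest TPM ratio belonged to Rpgrip1l, at 1.496, still inside the limit of its bin. Its counts, scaled to the mouse-gene totals, had a ratio of 1.14 (95% exact Clopper-Pearson interval 1.01 to 1.30, counting error only). The full-length Rpgrip1l-201 had 2.75 and 2.48 TPM, and a 404-nt transcript with few counts, Rpgrip1l-202, had 4.79 and 2.54. The highest count ratio was that of Bbs1, at 1.28 (1.09 to 1.51). The lowest was that of Nek8, at 0.821 (0.753 to 0.895).

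**Figure D4:**
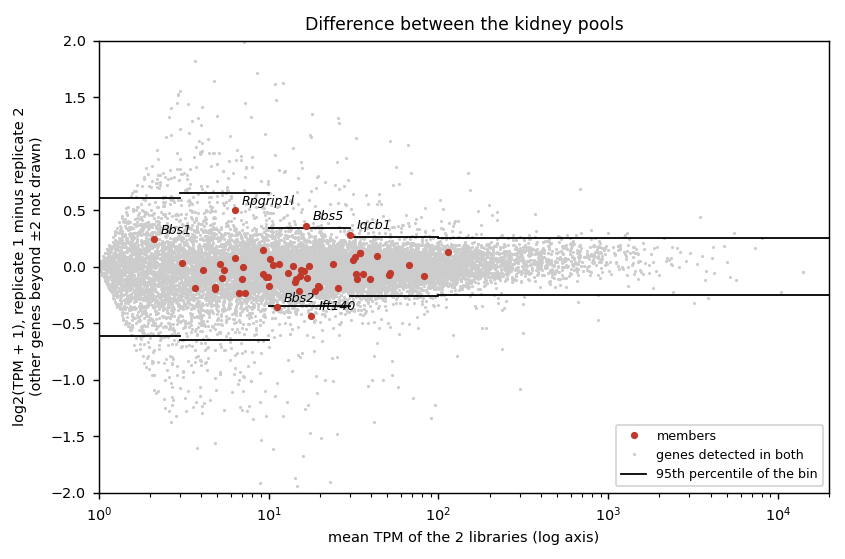
Difference in log2(TPM + 1), replicate 1 minus replicate 2, against mean TPM (log axis) for the 56 genes (red) and all detected genes (grey). Black lines are the 95th percentile of the absolute difference in each abundance bin, and Ift140, Bbs2, Bbs5 and Iqcb1 lie on or past them.

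The deposited transcript tables held 263 transcripts of the 56 genes, from 1 (in 13 genes) to 12, with a median of 4.5. IsoPct, the authors' percent of a gene's transcripts, named the same leading transcript in both libraries for 38 of the 43 genes with several. Over protein-coding genes with 2 or more transcripts and a mean count of 100, 92.5% of 9416 kept theirs. The 5 genes that changed were Bbs12, Tmem216, Ift122, Ift20 and Anks6. Bbs12-201 held 95.6% in replicate 1 and 49.5% in replicate 2, and Bbs12-202, which is nearly as long, held 4.43% and 50.5%. Tmem216-202 held 54.8% and 36.7%, and Tmem216-206 31.7% and 51.9%. Ift122-203 held 50.7% and 30.9%, and Ift122-201 28.2% and 41.2%. In Ift20 the leading forms were close, with 45.4% and 39.8% for Ift20-202 and 35.8% and 40.6% for Ift20-203. Gene levels of Bbs12 were nearly equal in the 2 libraries, as given above, while the estimated split between its transcripts was not. The quantifier's TPM intervals overlapped between libraries for Bbs12-201 (4.11 to 7.19 and 1.74 to 5.44) and for Bbs12-202 (4.7e-05 to 2.67 and 1.51 to 5.33). They also overlapped for the leading forms of the other genes that changed, so the changes are uncertain.

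A protein-coding transcript led in most genes. By IsoPct, 3 of the 54 genes with a classed leading transcript were led by another class, against 6.17% of 12706 protein-coding genes. The classes came from the annotation release M21, in which all transcripts of Tctn2 are non-coding although RefSeq lists the gene as protein-coding, so Tctn2 was left out here. Cc2d2a was led, at 43.5% and 50.5%, by a transcript of 1826 nt that M21 does not list. By counts, 1 of 55 genes was led by another class (Anks6, by the nonsense-mediated decay form Anks6-202), against 3.42% of 12717 protein-coding genes. In Anks6 this rests on replicate 1: Anks6-202 held 54.4% of counts in replicate 1 and 42.3% in replicate 2, and the coding Anks6-201 held 39.7% and 50.7%.

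In Pkhd1 the share of transcripts outside the protein-coding class differed most between IsoPct and counts. Its retained-intron transcript Pkhd1-204 (1636 nt) held 62.1% of transcripts in replicate 1 and 58.3% in replicate 2. Pkhd1-201, the longest coding form at 12935 nt, held 28.8% and 26.2% of transcripts but 78.2% and 76.7% of counts, at 1.29 and 1.36 TPM. On protein-coding transcripts alone, Pkhd1 had 1.33 ± 0.049 TPM, against 4.84 ± 0.509 TPM for the gene, and was the lowest of 55 genes. Invs was led by Invs-206, a processed transcript, with 44.0% and 41.9%, and the coding form Invs-201 held 39.9% and 40.5% of transcripts and 66.4% and 67.4% of counts. Kif3a was led by Kif3a-206, a 770-nt nonsense-mediated decay form with 31.3% and 34.6%, although its coding transcripts together gave 32.4 and 34.5 TPM.

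All 3 genes of the inversin compartment had over 50% of their transcripts outside the protein-coding class. The mean share was 68.0% in Nek8, 62.7% in Anks6 and 59.8% in Invs, and Pkhd1 with 72.5% was the only other of the 55 genes past 50%. Tctn2 was again left out, and the transcript of Cc2d2a that M21 does not list was not counted in this share. Protein-coding transcripts held 48.2% of the TPM of Cc2d2a. How many of all protein-coding genes passed 50% is not given here. By counts the shares were 61.0% in Nek8, 54.8% in Anks6, 33.1% in Invs and 22.6% in Pkhd1. In Nek8 the leading form was nevertheless the coding Nek8-201 (33.4% and 30.5%), followed by the retained-intron Nek8-208 (20.2% and 29.9%). On coding transcripts alone the median of the compartment was 3.74 ± 0.177 TPM. Over 55 genes the median share outside the coding class was 5.31% ± 2.06 by IsoPct, with 7.41% in replicate 1 and 4.50% in replicate 2, and 2.80% by counts. Over 12782 protein-coding genes it was 1.61% by IsoPct and 0.484% by counts. In 19 genes the share was 0, but 13 of them, Pkd1, Cep290, Ift172 and Bbs1 included, had a single transcript in the tables, which fixes it.

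**Figure D5:**
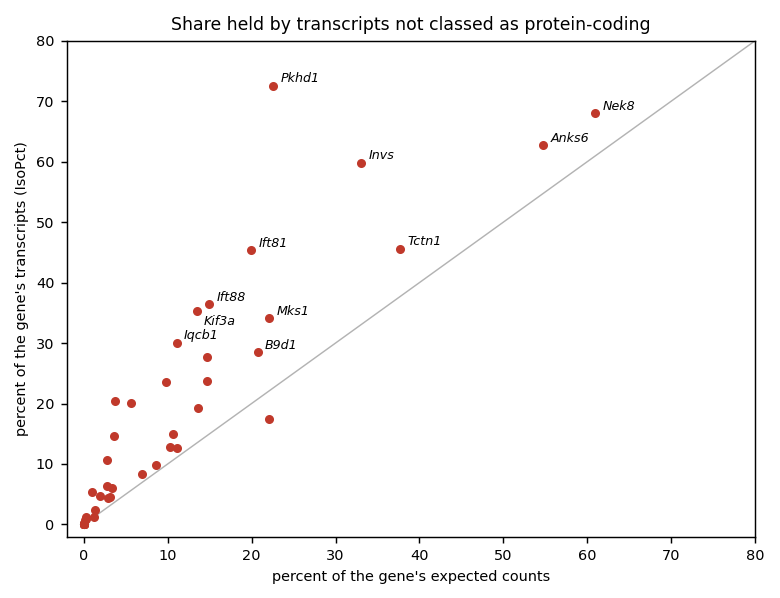
Percent of a gene's transcripts (IsoPct, vertical) against percent of its expected counts (horizontal) held by transcripts outside the protein-coding class, as means of 2 libraries for 55 genes. The grey line marks equal shares, and the transcript of Cc2d2a that M21 does not list is in neither share. Pkhd1, at 72.5% against 22.6%, lies farthest above it, and Nek8 and Anks6 are high on both axes.

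Restricting the levels to protein-coding transcripts changed the call of 3 of the chosen pairs. B9d1 no longer differed from B9d2 (0.38), and Invs no longer differed from Nphp4 (0.03, against 1.14 ± 0.085 with all transcripts). Ift81 came to lie below Ift74 (-0.91). Kif3a still exceeded Kif3b (2.11), as did Pkd2 over Pkhd1 (2.57). The 2 pairs with Tctn2 have no such value. Of the neighbours in the order of all-transcript levels, 15 of the 53 pairs with a value differed on coding transcripts, 14 of them not called on all transcripts. Among these was Wdr35 above Cc2d2a (0.77). The leading transcript of Cc2d2a, which M21 does not list, was not counted as coding there.

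Other genes of the same pathways were listed alongside. Of 49 further cilium and cyst genes, 48 were detected, and the list median was 22.4 ± 1.33 TPM. The exception was Ttc30a2, with 0.80 and 0.38 TPM, a close relative of Ttc30a1 and Ttc30b whose reads may be split between the copies. Among 15 other IFT and motor genes, Ift22 (45.0 and 47.3 TPM), Dync2li1 (43.9 and 42.1), a light intermediate chain of dynein-2, and Hspb11 (33.1 and 33.1), also known as Ift25, were highest. Kifap3, the third kinesin-2 subunit, had 24.4 and 23.9 TPM, between Kif3a and Kif3b. Tmem107 (52.5 and 49.0 TPM) led the 13 other transition zone and nephronophthisis genes, followed by Dcdc2a (36.2 and 31.7) and Tmem138 (30.1 and 31.6). The 5 other Bardet-Biedl genes had a median of 38.5 ± 5.67 TPM, and Trim32, Lztfl1 and Mkks were highest. Among 9 other cyst genes, those of the endoplasmic reticulum led, with Prkcsh at 109.2 and 109.7 TPM, Dnajb11 at 101.2 and 95.5 and Ganab at 95.5 and 97.3. Of 8 genes of ciliary membrane traffic, Rab11a (453.1 and 432.1 TPM), Arl3 (115.9 and 116.5) and Rab8a (102.3 and 103.4) were highest, and these also serve traffic elsewhere in the cell.

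Genes of motile cilia were mostly below the detection threshold. Of 18 genes for axonemal dyneins, radial spokes and the multiciliated cell programme, 7 were detected, against 62.3% of protein-coding genes. The median over all 18 was 0.398 ± 0.046 TPM. The highest were Rsph9 (9.57 and 9.84 TPM), Ccdc40 (3.99 and 5.93) and Tekt1 (4.44 and 4.55). Foxj1, the main regulator of motile cilia, had 2.36 and 2.34 TPM. Mcidas was listed at 0 and 0.02 TPM, and Gmnc, which acts with it at the start of the multiciliated programme, at 0.02 and 0.

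Several of the 56 genes lie close to other genes. A protein-coding gene started within 1000 bases in the opposite direction for 11 of them, against 6.79% of 21951 protein-coding genes of the annotation. Ift20 lay 29 bases from Tnfaip1 (67.1 and 71.5 TPM), Nek8 36 bases from Tlcd1 (23.4 and 25.6) and Ift46 63 bases from Arcn1 (160.2 and 158.1). The others were Dync2h1 with Dcun1d5, Ift122 with Mbd4, Tctn3 with Entpd1, Ift80 with Smc4, Invs with Erp44, Cep290 with Tmtc3, Rpgrip1l with Fto, and Ift140 with Cramp1l. The neighbour had the higher mean TPM in 7 of the 11. Rpgrip1l had 7.60 and 5.08 TPM and Fto, 263 bases away, 66.0 and 70.5.

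Exons of 17 of the 56 genes overlap exons of another gene, with a protein-coding partner on the opposite strand in 12. The same shares over all genes are not given here, so these counts describe the 56 genes only. The counting's use of strand is not given in the sources used here. Reads of such partners cannot be told apart with certainty. The partners included Tsc2 for Pkd1 (25.5 and 28.0 TPM), Pmpca for Inpp5e (92.5 and 91.2), Tex10 for Invs (46.6 and 46.3), Pam16 for Glis2 (65.8 and 68.9) and Cpsf7 for Tmem216 (29.97 and 31.38).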

How the data were processed

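Per the labels, total RNA over 200 nt was sequenced with added spike-ins. The deposited gene and transcript tables refer to mouse build mm10 and GENCODE M4. The aligner was not given in the sources used here, nor was the quantifier. The authors' expected counts are estimated and need not be whole. The deposited TPM values are adjusted for length and scaled to a fixed sum that includes spike-ins (5.78% of TPM in replicate 1, 7.34% in replicate 2). The deposited FPKM values served as an alternative. IsoPct is the authors' percent of a gene's transcripts, per the file headers. The authors' TPM interval bounds are drawn, and are compared between libraries only for transcripts of genes whose leading transcript changed.

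Gene names, classes and positions were taken from GENCODE M21 (also mm10) and promoters from RefSeq (GRCm38.p6). The 2 libraries differed by more than counting noise (chi-square per degree of freedom 11.4 over all genes, 3.81 over the 56) and were kept as 2 replicates. Levels are means ± SD. Detection needed 1 TPM in both libraries, log2 values used a pseudocount of 1, and error limits came from abundance bins (lower edges 1, 3, 10, 30 and 100 mean TPM). Counts were scaled with edgeR 4.0.16 (TMM) and DESeq2 1.42.0 (size factors) as alternatives, after rounding to whole numbers, with no test fitted. Python 3.11.15, pandas 2.3.3 and R 4.3.3 were used, and the fold rule was run on simulated libraries. The planted changes were larger than 2-fold and in genes above the mean count of 100, so behaviour at these thresholds was not tested. The pair rule was checked on a few set values only. Intervals cover counting error only, since reads are not independent molecules. A count of 0 allows up to 3 counts.

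The members and all lists were chosen with earlier results of these data known. Named are all 56 genes. From other lists, the 3 highest genes, genes under 1 TPM as counts and all listed transcription factors are named. Kifap3, Ttc30a2 and the neighbouring genes were chosen after their values were seen. A sequence window of 1 promoter match is not reported here.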

Additional observations from a re-analysis of the deposited data

How the results depend on the processing

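Detection of all 56 genes held at 0.5 TPM, at 1 FPKM and in each library alone, and 50 passed at 5 TPM. The median level of 14.5 TPM became 9.78 in FPKM, 16.2 after rescaling to nuclear mouse genes, 21.03 as a mean over genes, 12.2 with protein-coding transcripts only and 10.07 as TMM-scaled CPM per kb, and 14.0 to 15.1 with 1 library left out. The scales differ by construction, so these are not changes of the tissue. No member differed 2-fold between libraries under the alternatives run (ratio of 1.5, minimum of 20 or 0 counts, FPKM), and the median log2 ratio stayed below 0 under all of its alternatives.

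Of the 28 chosen pairs, 13 differed at the 99th percentile of replicate error in place of the 95th, 21 to 24 under the other settings and with 1 library left out, and 19 of 26 with protein-coding transcripts only, chosen after seeing the data. Of the 55 neighbours in the order, 2 differed, against 0 at the 99th percentile. With protein-coding transcripts only, also chosen after seeing the data, 15 of the 53 pairs with a value differed. These pairs were neighbours by all-transcript levels, not by coding levels, so this count is not a like measure. Genes led by a non-coding transcript numbered 3 to 4 with 1 library left out and 1 by expected count, chosen after seeing the data. The median non-coding share of 5.31% was 4.50% to 7.41% with 1 library left out, 14.4% as a mean over genes and 2.80% by expected counts. The half-site without its last base was present in 23 genes in place of 11. No paired analysis was possible because the design has 1 group of 2 libraries. Each gene had 240 counts or more in a library, and short transcripts with few counts carry wide errors.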
